A study of Mus musculus with 4 samples.

Results

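Purine and adenosine handling was followed through 7 listed genes, Enpp3, Nt5e, Adora2b, Slc28a2, Ada, Pnp and Xdh, which were found by symbol among the 32227 genes in the feature lists of all 4 matrices. The genes were listed by pathway, but with earlier results of these data known, so the list is not independent of the data. The cells came from the jejunal and ileal epithelium of 2 wild-type (C57BL/6J) mice at postnatal day 6, with 1 library from each region of each mouse, captured by templated emulsification (PIPseq). Replicate 1 of both regions was the mouse of batch 1, labelled male, and replicate 2 the mouse of batch 2, labelled female, so mouse, batch and labelled sex cannot be told apart. No allele, transgene or treatment distinguished the groups, and the comparison is between gut regions within the same animals.

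Nucleotides that leave a cell are degraded step by step at its surface. Enpp3, an ectonucleotide pyrophosphatase, splits ATP to AMP, and Nt5e (CD73) removes the phosphate of AMP to give adenosine. Adenosine can then bind receptors such as Adora2b, which raises cyclic AMP, or enter the cell through the sodium-coupled nucleoside carrier Slc28a2. Inside, Ada converts adenosine to inosine, Pnp splits inosine to hypoxanthine, and Xdh oxidises hypoxanthine to xanthine and uric acid. The small intestine is a tissue in which dietary nucleotides are digested and absorbed by enterocytes.

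The libraries held 7539 to 10001 called cells and 57951874 to 131400239 UMIs (distinct RNA molecules), and 30521 of 36202 cells passed the limits on genes and mitochondrial share. The ileal libraries were deeper, with medians of 10916 and 12047.5 UMIs for a kept cell, where jejunum had 4690 and 5884, and their median mitochondrial share was lower, at 3.61 and 3.74% against 6.37 and 9.94%. Xist, transcribed from the inactive X chromosome, ran from 467 to 537 CPM (UMIs scaled to a common library total) over the replicate 1 libraries, labelled male, and from 0.712 to 0.984 CPM over those of replicate 2, labelled female. The Y-linked Eif2s3y ran the other way, so the labelled sex went against these genes in all 4 libraries. No kept barcode was shared between libraries, and 2 called barcodes were. Clusters were named from marker lists, which gave 25799 enterocyte-like cells, 2092 stem/progenitor-like cells, 256 enteroendocrine-like cells, 53 immune-like cells and 20 goblet-like cells. A further 2301 cells stayed unnamed because 2 haemoglobin genes were among the 10 leading genes of their cluster. Their summed erythroid markers reached 72.7 CPM in ileum 1 but 0 to 0.780 CPM in the other libraries. Their summed enterocyte markers ran from 16920 to 37432 CPM. The 12 enterocyte markers together reached 19609 and 23110 CPM in ileal enterocyte-like cells and 45151 and 46484 CPM in jejunal ones, so the class carried its markers in every library but at a lower summed level in ileum.

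The upstream sequences of Enpp3 and Adora2b are shown because both genes were far higher in enterocyte-like than in stem/progenitor-like cells, while only Adora2b passed the test between the regions (Enpp3, adjusted p = 0.223). Of the 7 genes, 6 had an entry in the RefSeq promoter table of build GRCm38.p6, and Xdh is named only. Each sequence below is the 250 bases before the annotated start, 5′ to 3′ on the strand of the gene, at chr10:24836196-24836445 (minus strand) for Enpp3 and chr11:62248734-62248983 (plus strand) for Adora2b. The counts themselves were made on GRCm39, so these positions belong to the reference table and not to the deposited files. Capitals mark exact matches, on either strand, to the CCAAT box (CCAAT), the GC box (GGGCGG) and the TATA box (TATAAA).
Enpp3: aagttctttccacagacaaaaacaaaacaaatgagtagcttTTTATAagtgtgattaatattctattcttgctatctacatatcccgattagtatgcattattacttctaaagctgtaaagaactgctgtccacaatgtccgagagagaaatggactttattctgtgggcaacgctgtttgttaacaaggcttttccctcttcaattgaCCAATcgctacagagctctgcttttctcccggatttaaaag
Adora2b: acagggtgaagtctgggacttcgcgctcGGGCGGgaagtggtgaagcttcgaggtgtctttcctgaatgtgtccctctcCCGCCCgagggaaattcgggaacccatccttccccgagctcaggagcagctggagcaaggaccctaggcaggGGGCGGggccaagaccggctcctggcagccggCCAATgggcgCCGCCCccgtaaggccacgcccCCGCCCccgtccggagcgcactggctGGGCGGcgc
The Enpp3 window was 36.8% G and C, with 1 CCAAT box, 1 TATA box and no GC box. By contrast, the Adora2b window was 69.6% G and C, with 1 CCAAT box and 6 GC boxes and no TATA box. Among 32851 windows of this length in the table, 33.8% held at least 1 CCAAT box, 32.7% at least 1 GC box and 12.4% at least 1 TATA box. A match to the CCAAT or GC box is thus common, and one to the TATA box less so. The TATA match of Enpp3 was on the opposite strand, in the part of the window farther from the start. Of the other windows, that of Nt5e held 4 GC boxes at 72.0% G and C, whereas that of Slc28a2 held 2 CCAAT boxes at 45.2%. A match describes the letters only.

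To compare the cell classes, UMIs were summed over the cells of a class in each library and given as CPM of that sum. A lower level in such a sum can come from fewer expressing cells or from less RNA per cell, which cannot be told apart. Between enterocyte-like and stem/progenitor-like cells of the same libraries, 5 of the 7 genes were higher in enterocyte-like cells (Enpp3, Adora2b, Xdh, Slc28a2 and Pnp), Ada was higher in stem/progenitor-like cells, and Nt5e did not pass the test. The test was edgeR's quasi-likelihood test with library as a block and Benjamini-Hochberg adjustment, with an adjusted p under 0.05 called. It called 62.4% of 17051 genes, 32.5% of them higher in enterocyte-like and 29.9% higher in stem/progenitor-like cells, so a call was common in this comparison and the sizes carry more than the count. The TMM scaling used in the fit raised enterocyte-like over stem/progenitor-like cells by 0.52 log2 units relative to plain CPM, with a median difference over all genes of -0.03 by TMM and -0.54 by CPM, and log2 differences below are those of the fit unless CPM is named. No gene among the 7 changed direction with this scaling.

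**Figure D1:**
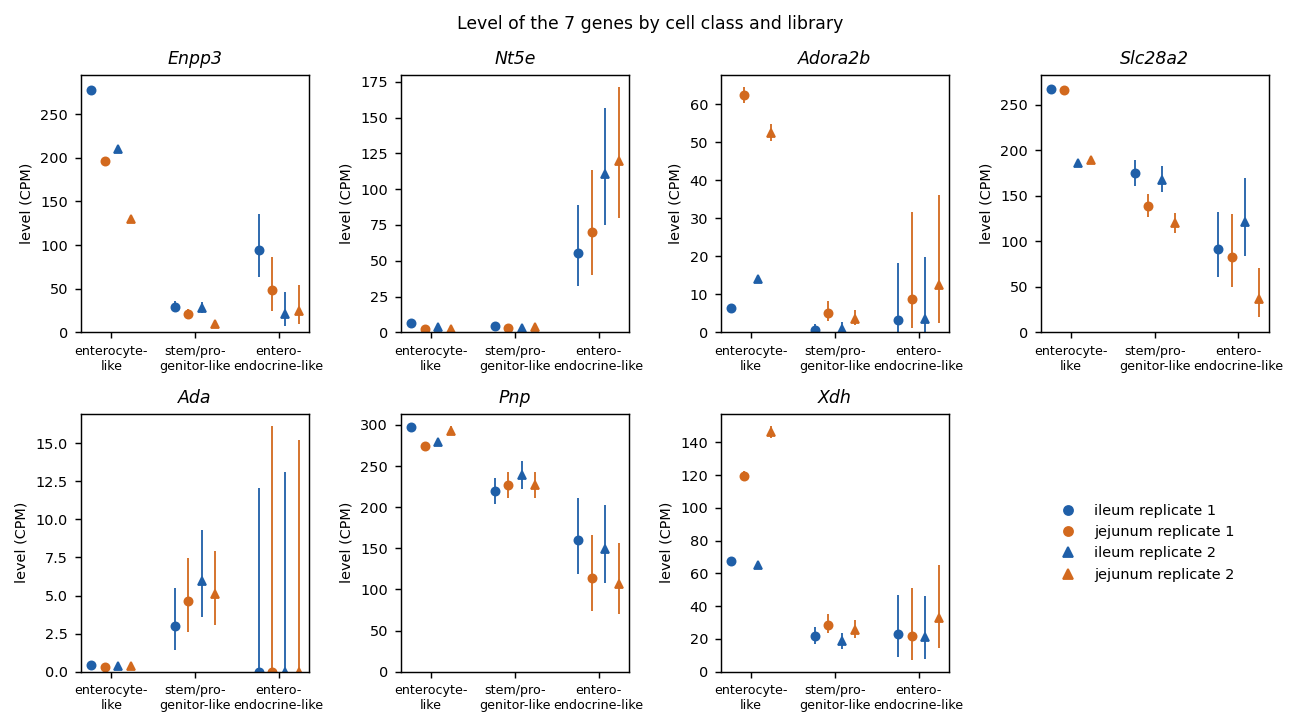
Level of each of the 7 genes in enterocyte-like, stem/progenitor-like and enteroendocrine-like cells, as CPM of the summed cells of a class in each library. Blue is ileum, orange is jejunum, circles are replicate 1 and triangles replicate 2, and bars are exact Poisson 95% intervals that cover counting error only. In enterocyte-like cells the jejunal libraries sit at 52.5 and 62.5 CPM for Adora2b against 6.48 and 13.9 in ileum.

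Enpp3 was high in enterocyte-like cells and low in stem/progenitor-like cells. In enterocyte-like cells it reached 278 CPM in ileum and 196 CPM in jejunum of replicate 1, and 210 and 129 CPM in replicate 2. In stem/progenitor-like cells the corresponding levels were 29.0, 21.0, 27.9 and 9.09 CPM, below every enterocyte-like library. The fitted difference was 3.79 ± 0.16 log2 units (SE, 4 libraries, adjusted p = 9.99e-08), and the CPM ratio within a library ran from 7.55 to 14.2. The summed enterocyte markers, by comparison, were 4.24 to 5.29 times higher in enterocyte-like cells. Enteroendocrine-like cells, at 21.4 to 94.7 CPM, overlapped stem/progenitor-like cells, and the unnamed cells, at 167 to 360 CPM, overlapped the enterocyte-like ones. The 20 goblet-like cells gave 294, 426, 0 and 486 CPM in ileum 1, jejunum 1, ileum 2 and jejunum 2. These rest on 5, 12, 0 and 6 UMIs. In jejunum they were above the enterocyte-like levels, with exact Poisson intervals of 220 to 744 and 178 to 1059. Enpp3 was therefore not limited to enterocyte-like cells.

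Adora2b followed the same order of classes. Its enterocyte-like levels were 6.48 and 13.9 CPM in ileum and 62.5 and 52.5 CPM in jejunum, and its stem/progenitor-like levels were 0.60 and 0.94 CPM in ileum, from 2 and 3 UMIs, and 5.18 and 3.48 CPM in jejunum, from 18 and 13 UMIs. The classes did not overlap within a region, with a difference of 4.26 ± 0.18 log2 units (adjusted p = 1.11e-07) and CPM ratios of 10.8 to 15.1. The stem/progenitor-like share of the enterocyte-like level was 0.0662 to 0.0924 for Adora2b and 0.0703 to 0.132 for Enpp3, against 0.189 to 0.236 for the summed enterocyte markers. The part of free RNA, which carries transcripts of broken cells into other barcodes, in the stem/progenitor-like levels was not tested. Enteroendocrine-like cells gave 7 Adora2b UMIs in all and immune-like cells 1.

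Xdh, the last enzyme of the series, was higher in enterocyte-like cells by 2.54 ± 0.16 log2 units (adjusted p = 9.19e-07). Its levels there were 67.6 and 65.2 CPM in ileum and 119 and 147 CPM in jejunum, against 18.5 to 28.8 CPM in the 4 stem/progenitor-like sums. Enteroendocrine-like cells, at 21.4 to 32.9 CPM, could not be separated from stem/progenitor-like cells. The stem/progenitor-like share of the enterocyte-like level, 0.175 to 0.318, overlapped that of the summed enterocyte markers.

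Slc28a2 and Pnp had smaller differences between enterocyte-like and stem/progenitor-like cells than Enpp3, Adora2b and Xdh. Slc28a2, the carrier, stood at 186 to 267 CPM in enterocyte-like cells, 120 to 175 CPM in stem/progenitor-like cells and 37.1 to 121 CPM in enteroendocrine-like cells. The difference between the first 2 of these classes was 1.11 ± 0.14 log2 units (adjusted p = 7.58e-05), or 0.59 on plain CPM. Pnp stood at 275 to 298 CPM in enterocyte-like, 219 to 239 CPM in stem/progenitor-like and 107 to 160 CPM in enteroendocrine-like cells, and the first 2 classes did not overlap (0.85 ± 0.10 log2 units, adjusted p = 4.77e-05, or 0.33 on plain CPM). Both genes have near-identical copies in the mouse genome, and reads shared between copies can be lost or misassigned, so their values are uncertain. The copy Slc28a2b stood at 5.29 to 15.2 CPM in enterocyte-like cells and was higher there than in stem/progenitor-like cells by 0.71 log2 units (adjusted p = 0.0118), a call lost without library as a block (adjusted p = 0.276). The copy Pnp2, at 18.2 to 24.6 CPM in enterocyte-like and 27.8 to 33.8 CPM in stem/progenitor-like cells, differed by 0.05 log2 units in the fit and by -0.47 on plain CPM, so its direction turned with the scaling.

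Ada ran opposite to the other intracellular enzymes. Only 97 Ada UMIs were counted in 25799 enterocyte-like cells, at 0.422, 0.307, 0.382 and 0.391 CPM in ileum 1, jejunum 1, ileum 2 and jejunum 2. The far smaller stem/progenitor-like class gave 64 UMIs, at 2.99, 4.61, 5.95 and 5.08 CPM, above every enterocyte-like library. Ada was lower in enterocyte-like cells (log2 difference -3.09 ± 0.33, adjusted p = 2.68e-05), and the stem/progenitor-like level was 7.08 to 15.6 times the enterocyte-like one. Enteroendocrine-like cells gave no Ada UMI, which with 1058704 UMIs in all leaves an upper 95% limit of 3.48 CPM, and 53 immune-like cells gave 6 UMIs, or 18.2 CPM with an exact Poisson interval of 6.68 to 39.6.

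Nt5e did not follow Enpp3, the enzyme before it in the series. Enterocyte-like cells held 6.89, 2.26, 3.67 and 2.59 CPM in ileum 1, jejunum 1, ileum 2 and jejunum 2. In the same order stem/progenitor-like cells held 4.19, 2.88, 2.82 and 3.74 CPM, so the classes overlapped. The fitted difference was 0.59 ± 0.29 log2 units (adjusted p = 0.100), or 0.05 on plain CPM. By contrast, enteroendocrine-like cells reached 55.5, 69.9, 110 and 119 CPM, above every library of those 2 classes. Their pooled level of 87.8 CPM (exact Poisson interval 70.9 to 108) came from 93 UMIs. Immune-like cells, at 60.7 to 392 CPM from 50 UMIs, overlapped the enteroendocrine-like range. At 2000 UMIs per cell, Nt5e was seen in 12.7, 15.3, 16.4 and 15.6% of enteroendocrine-like cells but in 2.00, 0.53, 1.02 and 0.74% of enterocyte-like cells. The median depth before thinning was 3207 to 5453 UMIs in the former and 5301 to 14176.5 in the latter, so the share was higher in the shallower class. Enpp3 was seen in 2.99 to 10.2% of the same enteroendocrine-like cells.

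To ask where in the gut the pathway differed, ileum was compared with jejunum in enterocyte-like cells by edgeR's quasi-likelihood test. The fit within a class had region as its only term and no block, so it did not use the pairing of regions within a mouse. Adora2b and Xdh were higher in jejunum, and no other gene of the 7 passed. Over all genes the test called 7.37% of 19559, 3.13% higher in jejunum and 4.24% higher in ileum, against 2 of 7 here, both higher in jejunum. The median log2 difference of ileum over jejunum was -0.09 over the 7 genes and -0.01 over all genes. The libraries of the regions did not overlap for 4 of the 7 genes, Enpp3 and Nt5e with ileum higher and Adora2b and Xdh with jejunum higher. With 2 libraries per region, 61.9% of all genes did not overlap either, so this share is close to that of any gene.

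Adora2b had the largest regional difference of the 7. The ileal mean was 10.2 ± 5.27 CPM (SD, n = 2) and the jejunal mean 57.5 ± 7.05 CPM (n = 2), from 506 and 1166 UMIs in ileum and 3258 and 2146 UMIs in jejunum. The log2 difference was -2.59 ± 0.40 (adjusted p = 0.0266), or 6.02-fold. Within replicate 1 the jejunal level was 9.64 times the ileal one and within replicate 2 it was 3.77 times. The call was kept when any 1 library was left out, with adjusted p from 0.0205 to 0.0469, and was lost without a filter on low counts (adjusted p = 0.0795). At equal depth, Adora2b was seen in 1.17 and 2.63% of ileal and 11.6 and 9.17% of jejunal enterocyte-like cells, and in 0.20 and 0.62% against 1.17 and 1.93% of stem/progenitor-like cells, whose median depths were 5027 to 6476 UMIs. Without thinning, the enterocyte-like shares were 7.10 and 13.6% in ileum and 29.3 and 28.3% in jejunum, although the jejunal cells were shallower.

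Xdh differed less between the regions, at 67.6 and 65.2 CPM in ileum and 119 and 147 CPM in jejunum. Its log2 difference was -1.12 ± 0.17 (adjusted p = 0.0257), or 2.17-fold, with within-mouse ratios of 1.76 and 2.25. This call rested on few libraries, since leaving out ileum 1, ileum 2 or jejunum 2 gave adjusted p of 0.112, 0.0829 and 0.0778. At 2000 UMIs per cell, Xdh was seen in 12.5 and 12.9% of ileal and 22.0 and 26.1% of jejunal enterocyte-like cells. In stem/progenitor-like cells the share was 2.67 to 5.27%. Without thinning the enterocyte-like shares were 47.5 and 48.8% in ileum and 47.3 and 59.6% in jejunum, where the ileal cells were deeper.

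For the ectoenzymes the direction was the other way, without a call. Enpp3 was higher in ileum within both mice, 1.42-fold and 1.63-fold, with a fitted difference of 0.47 ± 0.22 log2 units (adjusted p = 0.223). With mouse as a block the difference was 0.49 and passed (adjusted p = 0.0448), in a fit that called 17.4% of genes. Nt5e gave 0.99 ± 0.32 log2 units (adjusted p = 0.119, and 0.0460 by DESeq2), with ileal over jejunal ratios of 3.04 and 1.41. At equal depth Enpp3 was seen in 29.6 and 28.2% of ileal and 28.8 and 20.4% of jejunal enterocyte-like cells, so the shares of replicate 1 were nearly level.

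Slc28a2, Ada and Pnp did not pass the test between the regions. Slc28a2 reached 267 CPM in ileum and 265 CPM in jejunum of replicate 1, against 186 and 189 CPM in replicate 2, so its libraries separated by mouse rather than by region, as did those of its copy Slc28a2b in the opposite direction (5.29 and 7.17 against 15.2 and 14.1 CPM). The regional log2 differences were -0.12 ± 0.22 for Slc28a2 (adjusted p = 0.733), -0.09 ± 0.14 for Pnp (adjusted p = 0.679) and 0.10 ± 0.33 for Ada (adjusted p = 0.871). Ada was counted with 16 to 33 UMIs per library.

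Within stem/progenitor-like cells none of the 7 genes was called by edgeR, while the test called 2.57% of 12935 genes there. Unadjusted p fell below 0.05 for 4 of the 7 and for 1964 of all 12935 genes. DESeq2 called none of the 7, giving no adjusted p for 2 of them. Adora2b had nearly the same size of difference as in enterocyte-like cells, at -2.48 ± 0.65 log2 units (adjusted p = 0.0887), on 2 to 18 UMIs per library. Enpp3 was at 0.88 ± 0.33 (adjusted p = 0.230), Slc28a2 at 0.37 (adjusted p = 0.236) and Xdh at -0.48 (adjusted p = 0.290). Whether the regional difference itself differed between the 2 classes was tested by the interaction of region and class, which called 9.25% of 19184 genes. None of the 7 was called by edgeR or DESeq2. An unadjusted p below 0.05 was found for 2 of the 7 and for 4437 of all 19184 genes. The log2 interaction was -0.11 for Adora2b (adjusted p = 0.958), -0.63 for Xdh (adjusted p = 0.0771), -0.49 for Slc28a2 (adjusted p = 0.0736), -0.44 for Enpp3 (adjusted p = 0.278) and 0.95 for Nt5e (adjusted p = 0.249).

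The clusters within the enterocyte-like class gave a finer view, and none of the 7 was among the genes used to form them. Of the enterocyte-like clusters, 14 held at least 50 cells of all 4 libraries. Adora2b was higher in both jejunal than in both ileal libraries in 14 of 14, with jejunal over ileal ratios of 4.76 to 17.0 (median 7.31). Xdh was too, in 14 of 14, with ratios of 1.13 to 2.70 (median 2.07). Clusters of a class share libraries and are not replicates. Enpp3 was higher in both ileal libraries in 7 of the 14 and in both jejunal ones in 1. Slc28a2 separated the regions in none, and Pnp was higher in both jejunal libraries in 5 and in both ileal ones in 2. Over the whole class 61.9% of all genes separated the regions in this way. The share of all genes within single clusters was not computed, so these counts are descriptions only.

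**Figure D2:**
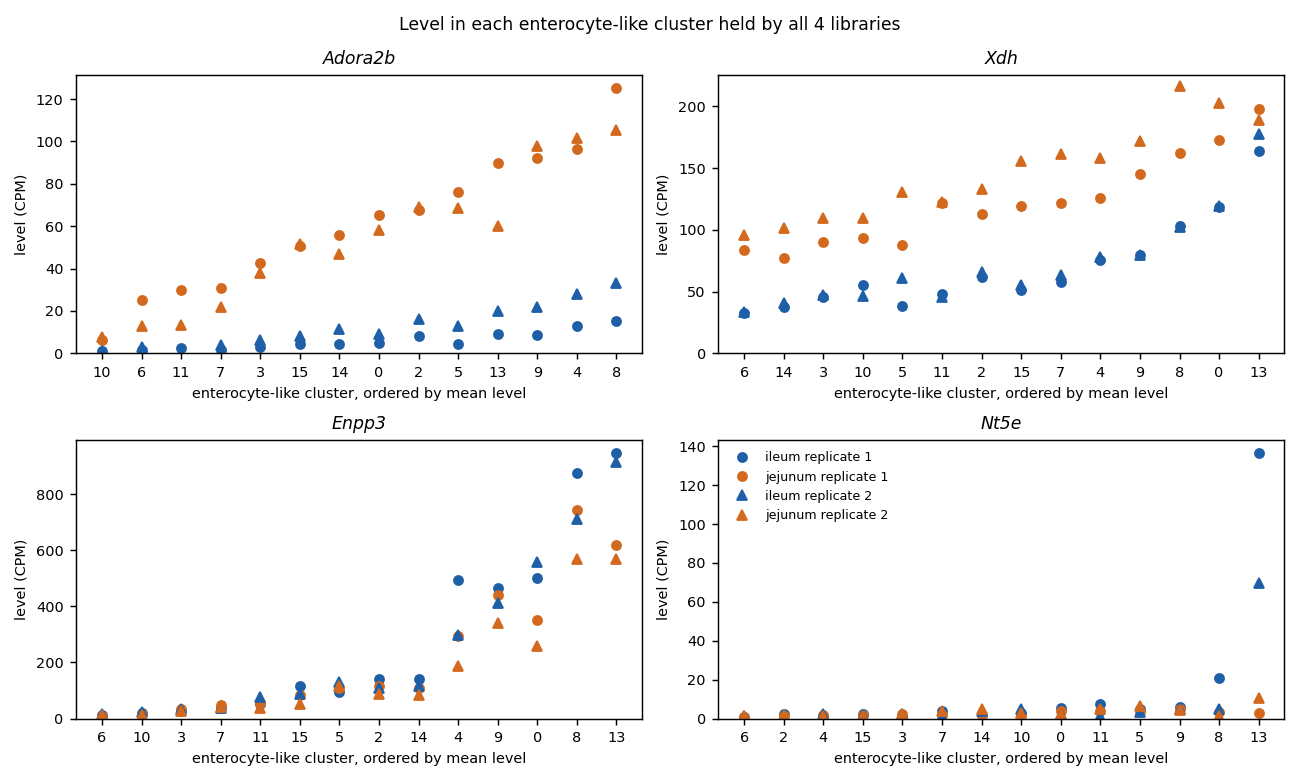
Level of Adora2b, Xdh, Enpp3 and Nt5e (CPM) in the 14 enterocyte-like clusters held by all 4 libraries, ordered in each panel from the lowest to the highest mean level; blue is ileum, orange is jejunum, circles are replicate 1 and triangles replicate 2. The jejunal points lie above the ileal ones in every cluster for Adora2b and Xdh, while Nt5e is high in 1 cluster and in its ileal libraries.

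The clusters also showed how unevenly the genes were spread over the enterocyte-like class. Over the 14 clusters held by all 4 libraries, mean levels ran from 12.2 to 762 CPM for Enpp3 (62.3-fold). They ran from 1.19 to 54.9 CPM for Nt5e (46.3-fold) and from 4.05 to 69.8 CPM for Adora2b (17.2-fold). By contrast, Xdh ranged 2.96-fold, Pnp 2.21-fold and Slc28a2 1.71-fold. Among these 14, cluster 13, led by Trf, Nt5e and Sprr2a2, held the highest mean level of Enpp3, Nt5e and Xdh. Cluster 6, led by Fabp6 and Aldh1a1, held the lowest level of the same 3 genes and the highest of Slc28a2 and Pnp. The median depth was 2986.5 UMIs in cluster 13 and 17875 in cluster 6, and its part in these levels was not tested. In a cluster led by the interferon-induced gene Ifit3, which reached 50 cells in ileum 1 alone, Pnp stood at 743 CPM and Xdh at 192 CPM. Both were above the mean level of the same gene in every other enterocyte-like cluster.

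Much of the regional difference of Nt5e lay in cluster 13. There Nt5e reached 137 and 69.9 CPM in the ileal libraries but 2.77 and 10.5 CPM in the jejunal ones, from a like share of the enterocyte-like cells in each (5.33 and 5.11% in ileum, 5.19 and 4.05% in jejunum). The cluster gave 39.4 and 28.3% of the enterocyte-like Nt5e UMIs in ileum and 2.54 and 6.60% in jejunum. These rest on 212 and 87 UMIs in ileum but only 3 and 7 in jejunum. In the other enterocyte-like cells Nt5e stood at 4.26 and 2.67 CPM in ileum and 2.25 and 2.46 CPM in jejunum. Without the cluster, a choice made after the values were seen, the ileal over jejunal ratios fell from 3.04 and 1.41 to 1.89 and 1.08.

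To place the genes along the villus, enterocyte-like cells at 2000 UMIs each were ranked within a library by the summed UMIs of 8 genes known to mark the villus tip in adult mice, and separately by the share of UMIs from 84 ribosomal protein genes, and cut into quintiles. These rankings use the same cells as the levels, so they are descriptions without a test. Enpp3 went from 0.46 to 6.36 UMIs per 10000 between the lowest and the highest quintile of the tip score in ileum 1 (13.7-fold) and from 0.52 to 5.55 in ileum 2 (10.7-fold). In jejunum the step was shallower, from 1.01 to 4.09 (4.06-fold) and from 0.77 to 2.87 (3.73-fold). In the lowest quintile, then, the jejunal libraries were higher for Enpp3, and in the highest quintile the ileal ones were. Without thinning the Enpp3 ratios fell to 7.47 and 3.19 in ileum and 1.53 and 1.68 in jejunum.

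Xdh followed the tip score in ileum, 2.80-fold and 2.93-fold between the end quintiles, and less so in jejunum, 1.09-fold and 1.42-fold. For Adora2b the ratio was 2.21 and 2.96 in jejunum and 4.25 in ileum 2, and ileum 1 had too few UMIs in its lowest quintile. Slc28a2, at 0.815 to 1.20, and Pnp, at 0.777 to 1.09, were nearly level along the score. Nt5e counted 6 UMIs in the lowest and 126 in the highest quintile of ileum 1, and 10 and 49 in ileum 2, whereas jejunum 1 had 7 in each and jejunum 2 had 8 and 10. Without thinning, where the summed score also ranks cells by depth, the Nt5e ratio was 1.73 in ileum 1 and turned to 0.513 in ileum 2, 0.455 in jejunum 1 and 0.361 in jejunum 2. The score moved with other properties of the cells, since the median mitochondrial share went from 7.84 to 4.71% between the end quintiles of jejunum 1 and the median depth from 10601 to 12001 UMIs in those of ileum 1, and the part of these in the levels was not tested.

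**Figure D3:**
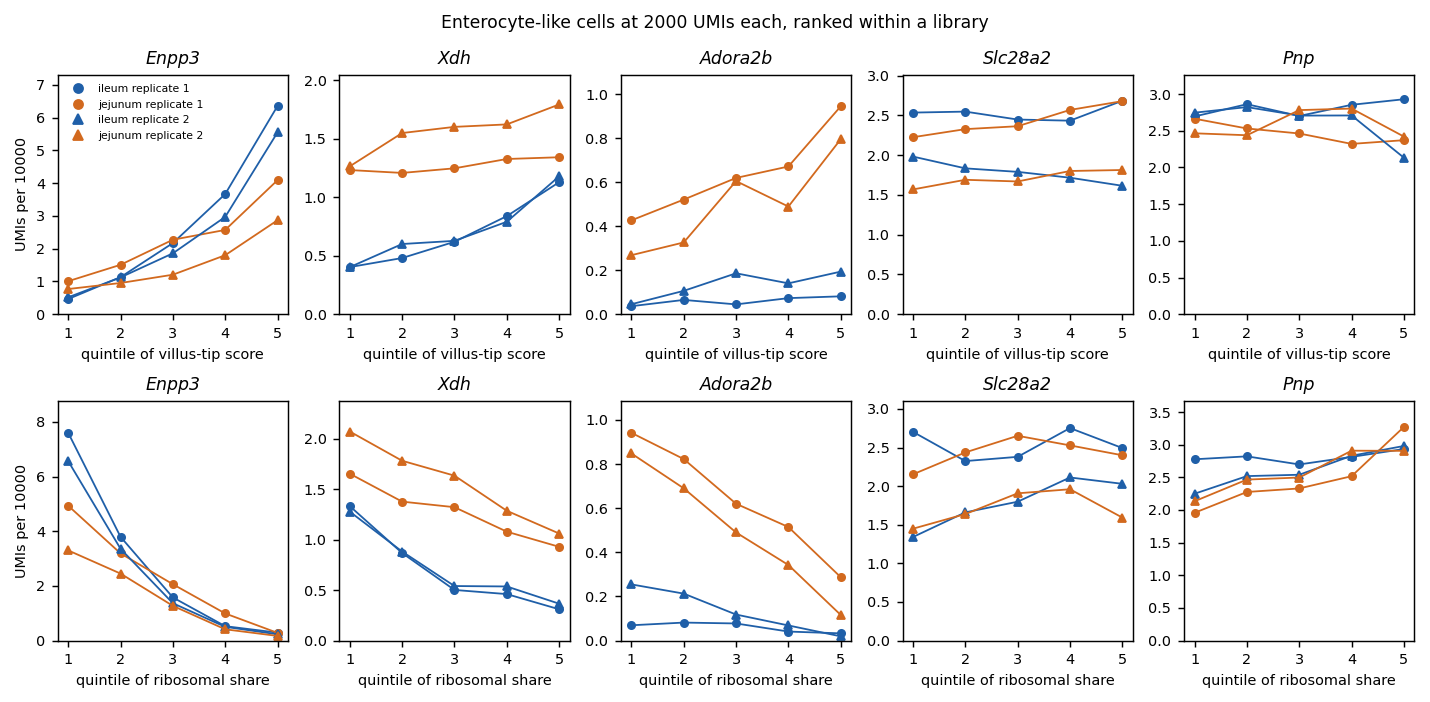
Level of Enpp3, Xdh, Adora2b, Slc28a2 and Pnp (UMIs per 10000) over quintiles of the villus-tip score (upper row) and of the ribosomal protein share (lower row), in enterocyte-like cells thinned to 2000 UMIs and ranked within each library; blue is ileum, orange is jejunum, circles are replicate 1 and triangles replicate 2. Enpp3 climbs with the tip score in all 4 libraries and falls with the ribosomal share, while Pnp is higher at the highest than at the lowest ribosomal quintile in all 4, from 1.96 to 3.27 in jejunum 1.

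The ribosomal protein share gave a second ranking, which was not independent of the tip score. Between its lowest and highest quintiles the mean count of tip UMIs went from 10.3 to 3.41 in ileum 1. Depth and mitochondrial share moved with it too. In jejunum 1 the median depth went from 3753 to 8083 UMIs and the median mitochondrial share from 8.97 to 4.38%. The part of these in the levels was not tested. Enpp3 was 26.3, 17.6, 28.8 and 19.5 times higher in the lowest than in the highest quintile of this share in ileum 1, jejunum 1, ileum 2 and jejunum 2. Xdh was 4.30 and 3.50 times higher in ileum and 1.78 and 1.95 times higher in jejunum. Adora2b was 3.28 and 7.31 times higher in jejunum. Pnp ran the other way, at 0.598 to 0.946, and Slc28a2 lay between 0.661 and 1.08. Within every quintile of either ranking, both jejunal libraries were above both ileal ones for Adora2b and for Xdh.

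Pairs of genes were then compared cell by cell at 2000 UMIs per enterocyte-like cell, as the odds ratio of seeing both. Of 21 pairs, 10 had at least 10 expected cells with both genes in all 4 libraries and 7 had so many in none, which include all 6 pairs with Ada. Among those 10 pairs the odds ratio was above 1 in all 4 libraries for 3 and below 1 in all 4 for 2. Enpp3 and Xdh gave 2.24, 1.36, 1.99 and 1.29 in ileum 1, jejunum 1, ileum 2 and jejunum 2, and Enpp3 and Adora2b gave 1.92, 1.63, 1.64 and 1.74. Within quintiles of the ribosomal share the first pair shrank to 1.07 to 1.39 and the second spanned 0.832 to 1.77. Adora2b and Xdh had enough expected cells in 3 libraries. There the pair gave 0.942 to 1.61, above 1 in 2 and below 1 in 1, and 0.865 to 1.24 within quintiles of the ribosomal share.

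Slc28a2 and Pnp gave 1.02 to 1.06, Enpp3 and Slc28a2 gave 0.724 to 0.909, and Slc28a2 and Xdh gave 0.833 to 0.994, so the last 2 pairs lay below 1 in every library. Nt5e was too rare for most pairs. With Enpp3 it gave 6.23 in ileum 1, from 88 cells against 36.4 expected, 3.19 in ileum 2, from 37 against 18.9, and 1.14 in jejunum 1, from 12 against 10.9. Within quintiles of the tip score these were 3.12, 2.14 and 1.14, and within quintiles of the ribosomal share they were 2.11, 1.63 and 0.878. With Pnp it gave 1.01 and 1.06 in ileum and 0.43 and 0.45 in jejunum, where 8 cells held both against 14.5 and 13.8 expected.

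**Figure D4:**
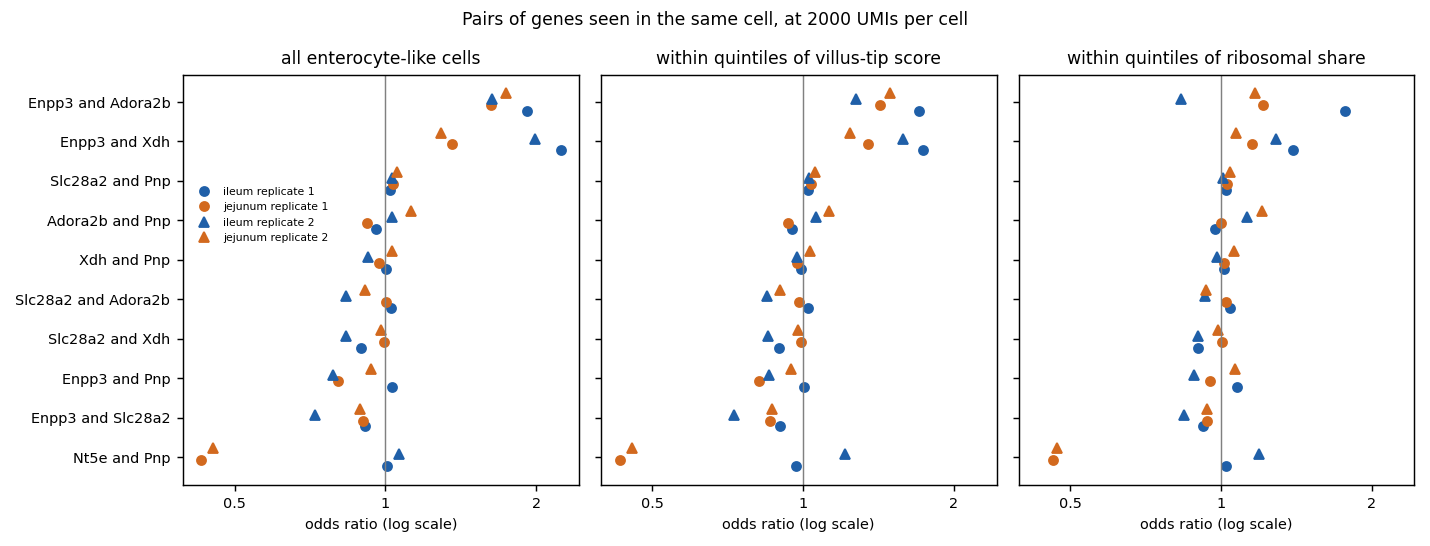
Odds ratio (log axis) of seeing both genes of a pair in the same enterocyte-like cell at 2000 UMIs, for the 10 pairs with at least 10 expected cells in every library, over all cells (left) and pooled within quintiles of the villus-tip score (middle) and of the ribosomal share (right); blue is ileum, orange is jejunum, circles are replicate 1 and triangles replicate 2. Enpp3 with Adora2b and with Xdh lie above 1 in all 4 libraries in the left and middle panels.

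The genes whose levels went most closely with each of the 7 were found over 76 sums of 1 cluster and 1 library with at least 50 cells, as Pearson r of log2(CPM + 5) among 7007 genes. The sums share libraries, depth and parent clusters, so r is given as a description. Enpp3 went with Plod1 (0.91), Lgmn (0.90) and Tmem229b (0.90), and Adora2b with Sectm1b (0.95), Arsg (0.94) and Asah2 (0.94). Xdh went with Parp14 (0.91), Helz2 (0.91) and Pxdc1 (0.90). The likeness was weaker for Slc28a2, with Plagl2 (0.80), Apaf1 (0.77) and Specc1 (0.73), and for Pnp, with Dbi (0.82), Bloc1s1 (0.73) and Akr1a1 (0.73). Among the 7 themselves, Adora2b and Xdh gave 0.75, Enpp3 and Xdh 0.59, Enpp3 and Adora2b 0.47 and Enpp3 and Pnp -0.17. Centred within libraries, whose means differ, Enpp3 and Adora2b gave 0.80, Enpp3 and Xdh 0.75 and Adora2b and Xdh 0.70. Nt5e and Ada, with means of 8.86 and 0.822 CPM, were below the 20 CPM limit.

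A wider list of purine genes, of which 69 were in the feature lists, sets the 7 in their pathway. In enterocyte-like cells 63 were tested between the regions, of which 3 were higher in ileum, 5 higher in jejunum and 55 not called, where 4.24% of all genes were higher in ileum and 3.13% in jejunum, with a median log2 difference of 0.10 against -0.01 over all genes. The jejunal set, besides Adora2b and Xdh, held Gda, which deaminates guanine to xanthine, a substrate of Xdh. Gda stood at 336 and 376 CPM in ileum and 1012 and 1054 CPM in jejunum, with no overlap (-1.65 ± 0.16 log2 units, adjusted p = 0.0154). Samhd1, a deoxynucleotide hydrolase, was lower in ileum as well (-0.86, adjusted p = 0.0321), and so was the adenosine receptor Adora1 (-2.01, adjusted p = 0.0469), which was under 1 CPM in every library.

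The ileal set held Ampd3, an AMP deaminase that turns AMP to IMP. It stood at 34.9 and 19.8 CPM in ileum and 5.21 and 1.47 CPM in jejunum (2.91 ± 0.58 log2 units, adjusted p = 0.0453). The ATP and UTP receptor P2ry2 (2.10, adjusted p = 0.0224) and the pyrimidine-preferring carrier Slc28a1 (1.39, adjusted p = 0.0404) were the others, both under 3 CPM. In stem/progenitor-like cells 51 of the list were tested, of which Gda and Samhd1 were lower and P2ry6 higher in ileum, in a comparison that called 2.57% of all genes.

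Between the classes 58 of the list were tested, of which 22 were higher in enterocyte-like cells and 23 in stem/progenitor-like cells, where 32.5% and 29.9% of all genes were, so calls were common for any gene. All 8 genes of purine synthesis from small precursors and all 4 tested genes from IMP to AMP and GMP were higher in stem/progenitor-like cells (29.9% of all genes were), where Ada was also higher. Paics, a synthesis enzyme, was at 30.8 to 48.4 CPM there and 1.17 to 1.60 CPM in enterocyte-like cells (-4.34 log2 units, adjusted p = 2.15e-07). Of 7 tested genes acting on nucleotides outside the cell, 5 were higher in enterocyte-like cells (32.5% of all genes were) and none lower, among them Enpp3 and Alpi, the intestinal alkaline phosphatase (3.68 log2 units, adjusted p = 3.05e-08). Alpi stood at 1051 to 1161 CPM in all 4 enterocyte-like sums. The receptors split, with Adora2b higher in enterocyte-like cells, and P2ry6 (-5.73, adjusted p = 1.05e-07) and Adora1 (-3.99, adjusted p = 6.03e-06) higher in stem/progenitor-like cells.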

How the data were processed

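Per the labels and the study's methods, epithelium was released with EDTA and dispase, captured with the PIPseq V kit, and aligned and counted by the authors with PIPseeker, at sensitivity level 3. The deposited matrices hold whole-number UMI counts per gene and called cell, not normalized. The submitters' processing notes name GRCm39.

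The authors' limits were applied, which kept cells with more than 1000 and fewer than 6000 genes and under 20% mitochondrial UMIs, and genes seen in 3 cells. Seurat 5.3.0 in R 4.3.3 took 2000 variable genes, from which Enpp3 and Nt5e were removed, computed 50 components, used CCA integration over libraries and split 30 components at resolution 1 into 23 clusters. A class needed 3 markers in 10% of a cluster's cells at 1 log2 unit above the rest (enterocyte: 3 markers in 50% of cells, mean log2 fold above -1). Scrublet (scanpy 1.11.5) marked only 1 or 2 cells per library, so it had not worked and no doublets were removed. Counts were summed per library and class and tested with edgeR 4.0.16 (quasi-likelihood, TMM, filterByExpr, Benjamini-Hochberg over all genes), with DESeq2 1.42.0 as an alternative. Libraries are the replicates, and only 2 mice were sampled. Cell-level values used cells thinned to 2000 UMIs (pandas 2.3.3, scipy 1.17.1 and numpy 2.4.6 in Python 3.11.15), with figures by matplotlib 3.10.9. Other depths, filters, scalings, cell rules, a mouse block and each library left out were tried. The gene-wise tests, the odds ratios and the likeness between genes were tested on simulated data.

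Depth per library was 57951874 to 131400239 UMIs over called cells, and intervals cover counting error only. The replicate numbers pair the samples, since both regions came from the same mouse, and deviations of same-numbered libraries from their group means correlated over genes (r = 0.268 for the enterocyte-like sums, r = 0.215 for the stem/progenitor-like ones, and with 2 pairs both give the same r). The 7 genes and all lists were chosen with earlier results of these data known. Named genes were the 7, their copies Pnp2 and Slc28a2b, wider-list genes called between regions in enterocyte-like cells, the 3 highest and 3 lowest called between classes, and the 3 most alike genes per member.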

Additional observations from a re-analysis of the deposited data

Results flagged for a closer look

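In the wider purine list, 8 of 63 tested genes had a regional difference that itself differed between enterocyte-like and stem/progenitor-like cells (interaction in edgeR's quasi-likelihood test, adjusted over all genes). The same test called 9.25% of all genes, so the share of the list was near the background. Values are the ileum over jejunum log2 difference in enterocyte-like cells minus that in stem/progenitor-like cells. In the direction of ileum they were 2.79 for Ampd3 (adjusted p = 0.000381), 1.10 for Prps2 (adjusted p = 0.00127), 0.95 for Pfas (adjusted p = 0.0215) and 0.85 for Atic (adjusted p = 0.00391). In the direction of jejunum they were -1.17 for the channel gene Panx1 (adjusted p = 0.00296), -1.15 for the carrier gene Slc29a1 (adjusted p = 0.0168), -1.004 for Gda (adjusted p = 0.000223) and -0.78 for the receptor gene P2rx4 (adjusted p = 0.00711). Prps2, Pfas and Atic are genes of purine synthesis, with regional differences of 0.86, 0.48 and 0.69 in enterocyte-like and -0.23, -0.49 and -0.16 in stem/progenitor-like cells. The values were -0.36 and 0.42 for P2rx4, -1.10 and 0.05 for Panx1 and -1.51 and -0.39 for Slc29a1. Slc29a1 stood at only 1.11 to 4.26 CPM in enterocyte-like cells. None of Prps2, Pfas, Atic, P2rx4, Panx1 and Slc29a1 was called between the regions within either class, so no direction is given for a single class. None of the 7 genes of the report was among the 8, and a group of 2 libraries is too small for a check of single outlying samples.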

How the results depend on the processing

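Counts of genes called depended most on the filter, the block and single libraries. In enterocyte-like cells the 1442 calls became 3088 with DESeq2, 1 without a filter, 3398 with mouse as replicate block, and 80 to 1515 with a library left out. In stem/progenitor-like cells 332 became 901 without a filter, 930 with the replicate block and 262 to 664. For the interaction 1775 became 617 with mouse in place of library as replicate block and 1118 to 1564. The block changed no call of the 7 genes other than Enpp3. Between regions in enterocyte-like cells, Nt5e passed with DESeq2 (0.99), Enpp3 with the replicate block (0.49), and Adora2b (-2.56) and Xdh (-1.09) were lost without a filter. With a library left out, Xdh ran from -1.28 to -0.91 (lost in 3 of 4), Ada from -0.10 to 0.32, Slc28a2 from -0.34 to 0.11 and Pnp from -0.16 to 0.0071. Ada reversed with cells classed singly (-0.14). In stem/progenitor-like cells, Nt5e reversed on thinned sums (-0.10), at resolution 0.5 (-0.10) and with cells classed singly (-0.16), and with a library left out ran from -0.25 to 0.26, Ada from -0.76 to 0.28 and Pnp from -0.12 to 0.0603. Between classes, Nt5e reversed with cells classed singly (-0.13). In the interaction, Adora2b reversed without high doublet scores (0.24) and at resolution 0.5 (0.37), Pnp at resolution 0.5 (0.0064), and with a library left out Ada ran from -0.24 to 0.94, Adora2b from -0.34 to 0.10 and Pnp from -0.17 to 0.0913. At the cell level, thinning mattered. Without it, jejunal over ileal shares were 0.798 for Slc28a2, 1.11 for Xdh and 0.818 for Pnp, the tip ratios 1.29 for Slc28a2, 1.36 for Pnp and 3.47 for Enpp3 (mean over libraries, 8.06 when thinned), the ribosomal ratio 32.4 for Enpp3, and odds ratios 1.14 (Nt5e and Pnp), 1.29 (Enpp3 and Slc28a2), 2.94 (Enpp3 and Adora2b), 1.41 (Enpp3 and Pnp), 2.73 (Slc28a2 and Adora2b), 2.62 (Slc28a2 and Xdh), 4.79 (Slc28a2 and Pnp), 3.23 (Adora2b and Pnp) and 2.94 (Xdh and Pnp). At 4000 UMIs the Enpp3 tip and ribosomal ratios were 14.3 and 30.0, and odds ratios 1.09 (Nt5e and Pnp) and 2.56 (Enpp3 and Adora2b). At 1000 UMIs the Ada share ratio was 1.48 and odds ratios 1.03 (Slc28a2 and Xdh) and 1.10 (Slc28a2 and Pnp), the latter 1.01 with cells classed singly. Centring within libraries left 1 of 3 alike genes shared for Slc28a2, Adora2b, Xdh and Pnp. The causes were not tested. Of the alternatives, 478 kept the direction and side of the threshold or moved by less than the replicate spread. A count of calls within 1.5-fold was taken as kept. Of the others, 27 moved by more than that spread and 21 reversed direction. A further 17 were stronger and 11 weaker, by a threshold passed or lost or by the count of calls.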
